A study of Mus musculus with 2 samples.

Results

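Complement and coagulation genes were described in macrophages sorted from the aorta of dyslipidemic mice, with the genes that macrophages make themselves set against those made by liver. The members were the 42 genes of a fixed list whose symbol matched a gene name in the deposited table of 54532 genes, and all 42 were found. By where each gene is generally known to be made, 8 were counted as macrophage-made, 17 as liver-made and 17 as having several sources. F10, which liver also makes, was placed among the macrophage-made genes. All mice were male ApoE knockout (ApoE-/-) mice on a C57BL/6J background, 6 weeks old at the start, so both groups lacked apolipoprotein E. The phlegm-dampness retention (PDR) group received a high-fat diet for 4 weeks. The spleen and kidney Yang deficiency (SKYD) group received propylthiouracil, a drug that blocks thyroid hormone synthesis, by gavage at 10 mg/kg per day for 4 weeks and then a high-fat diet for 2 weeks. Cells of 5 mice that were positive for F4/80 and CD11b, a pair of myeloid surface proteins, were pooled in each group, giving 1 library per group. Syndrome, drug, time on the diet and age at sampling therefore differed together and cannot be told apart, and no value below has a replicate check.

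Complement is a set of blood proteins that tag and lyse microbes and mark dying cells for removal. The classical pathway starts when C1q, a hexamer built from A, B and C chains, binds its target, the lectin pathway starts with mannose-binding lectin, and the alternative pathway amplifies both through factor B, factor D and properdin. Coagulation starts when tissue factor meets factor VII and ends when thrombin cuts fibrinogen into fibrin. Hepatocytes secrete most of these proteins into plasma. C1q and properdin are exceptions that come mainly from myeloid cells, and resident macrophages of several tissues also transcribe some clotting factors.

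The 2 libraries held 23086889 reads on genes for PDR and 25427863 for SKYD, recovered from the deposited FPKM (fragments per kilobase of gene length, scaled to library size). Differences are log2(FPKM + 1) in PDR minus SKYD, a scale that understates the contrast of low genes, and a gene was compared when its mean FPKM was at least 1. Intervals in brackets are 95% intervals from an exact (Clopper-Pearson) treatment of how a gene's reads divide between the libraries and cover counting error only. Folds are plain ratios of FPKM, while counts of genes past 2-fold use the log2(FPKM + 1) difference. All 16 macrophage markers checked were above this limit, with Lyz2, Ctss and Lgals3 the most abundant by mean FPKM of the 2 libraries. Cd14 had an FPKM of 938 in SKYD, above Lgals3 at 809.9, and of 149 in PDR, below Lgals3 at 718. The genes of the sorting proteins, Adgre1 (F4/80) and Itgam (CD11b), had an FPKM of 87.3 and 8.84 in PDR and of 93.3 and 14.4 in SKYD. Markers of hepatocytes were also present, with 17 of 19 above the limit. In bulk RNA, fewer cells of a type and less RNA per cell cannot be told apart.

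Of the 42 members, 34 were compared, and 21 of these (61.8%) differed by more than 2-fold. Over all 10399 genes compared, 14.3% did so. More than 2-fold higher in PDR were 14 members (41.2%, against 7.38% of all genes). More than 2-fold higher in SKYD were 7 (20.6%, against 6.91%). By plain ratio of FPKM, a setting that was not planned, the counts were 16 in PDR and 8 in SKYD. The sign divided largely by the source lists, which is a description, since the lists were not independent of these data. C3ar1 was the compared exception among macrophage-made and liver-made members as listed. F10, listed as macrophage-made, and F7, listed under several sources, are also made by liver, and both were higher in SKYD. Macrophage-made members had a median difference of -1.39 (-1.40 without F10) and liver-made members of 1.62, while the median of all genes compared was -0.0035. The 13 compared members with several sources had a median of 0.16. The 8 members under the limit were C5ar2, C8a, F9, F11, C2, Cfd, Masp1 and F3.

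**Figure D1:**
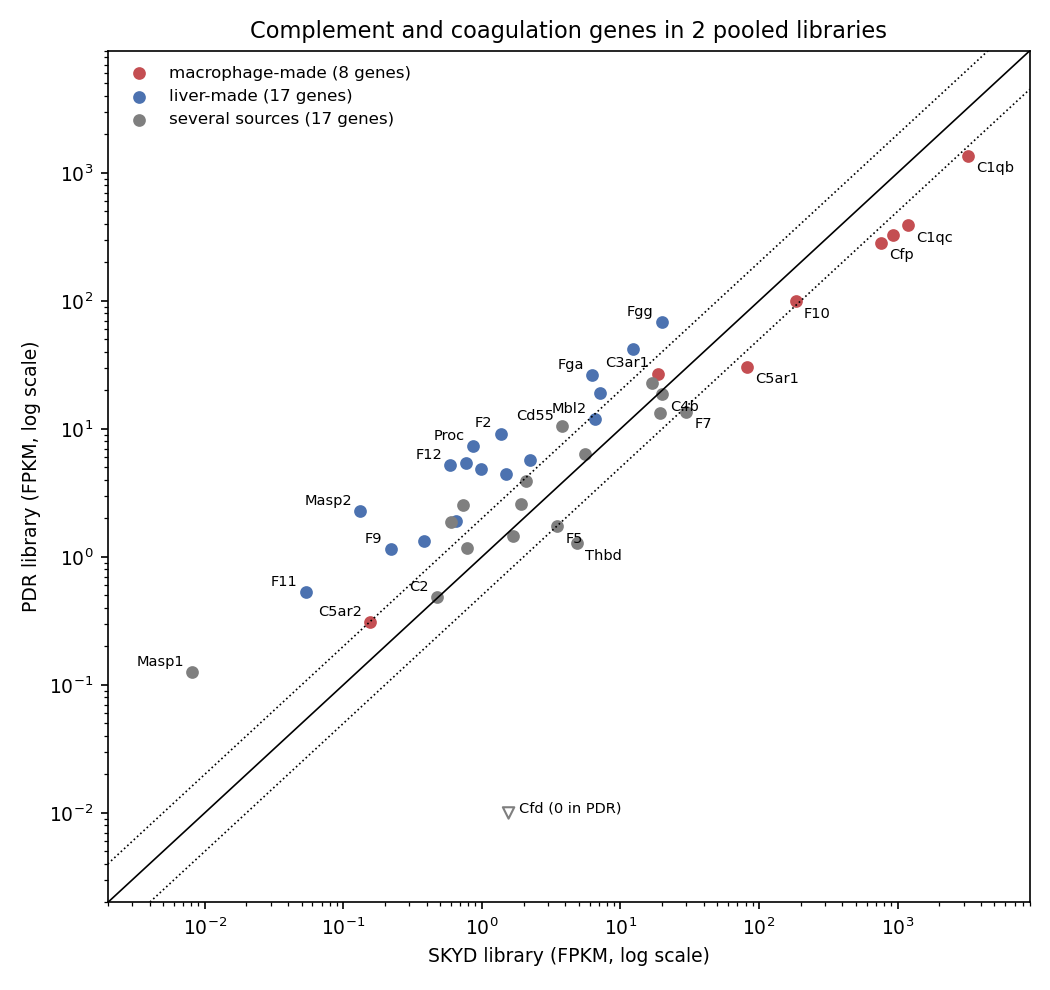
FPKM of the 42 members in the PDR library (vertical axis) against the SKYD library (horizontal axis), both on log scales, with 1 point per gene coloured by source. The solid line marks equal levels and the dotted lines a 2-fold ratio. The C1q chains and Cfp lie at the top right under the lower dotted line, the liver-made genes lie above the solid line, and the triangle marks Cfd, which had 0 reads in PDR.

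The C1q chains carried most of the complement and coagulation signal. C1qb (ENSMUSG00000036905, chromosome 4 from 136880129 to 136886187 of GRCm38), which encodes the B chain, had an FPKM of 1362 in PDR and 3239.8 in SKYD. The C chain gene C1qc had 392 and 1184, and the A chain gene C1qa had 325 and 921. Each chain gene was higher in SKYD, and C1qb was the 22nd most abundant of all genes there and the 57th in PDR. By FPKM, SKYD was higher by 2.38-fold for C1qb (2.35 to 2.41), 3.03-fold for C1qc (2.97 to 3.08) and 2.83-fold for C1qa (2.76 to 2.90). The chain genes thus did not differ by one common factor. The ratio of C1qb to C1qc was 3.48 in PDR and 2.74 in SKYD. Together the chain genes took 0.262% of reads in PDR (0.260 to 0.264, exact binomial interval) and 0.665% in SKYD (0.662 to 0.669), and they made up 56.7% and 71.5% of all reads on the 42 members.

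Properdin, the stabiliser of the alternative pathway convertase, showed a similar contrast. Its gene Cfp on chromosome X had an FPKM of 285 in PDR and 756 in SKYD, 2.65-fold higher in SKYD (2.60 to 2.71). Macrophage markers stood beside these values with a median difference of -0.58. Among these 16 markers, SKYD had the higher level of 12, and 3 passed 2-fold. Their ratio of FPKM, PDR over SKYD, had a median of 0.667, against 0.399 for the macrophage-made members. Markers of resident peritoneal macrophages, a population that also transcribes several complement and clotting genes, were higher in SKYD for 9 of 9 compared genes, with a summed FPKM of 563 in PDR and 1359 in SKYD. Mesothelial markers, from the lining of body cavities, were higher in SKYD for 5 of 5 compared genes, the interval of Krt18 including equal levels, with sums of 21.7 and 42.4. Liver macrophage and stellate cell markers were higher in SKYD for 3 of 4 compared genes (Cd5l, Vsig4 and Dcn), with sums of 149 and 263. Dcn was also on the fibroblast list, and Timd4 was nearly equal at 25.4 and 25.3. The 5 under the limit went in both directions, among them Clec4f with 37 and 41 reads and Reln with 69 and 16. Neutrophils, which store properdin, went the other way, with 8 of 10 markers higher in PDR and sums of 4878 and 3728. The part of these markers in the C1q, Cfp and receptor values was not tested.

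The anaphylatoxin receptors went in different directions. C5ar1, which binds C5a and draws in myeloid cells, had an FPKM of 30.7 in PDR and 81.9 in SKYD, 2.67-fold higher in SKYD (2.53 to 2.82). C3ar1, the receptor of C3a, had 27.0 and 18.6, 1.45-fold higher in PDR (1.37 to 1.54), and was the one compared macrophage-made member above 0. C5ar1 was therefore 1.14 times as abundant as C3ar1 in PDR and 4.41 times in SKYD. C5ar2, a second C5a receptor, had 26 reads in PDR and 14 in SKYD, and its ratio of 1.98 had an interval from 0.995 to 4.09, so no difference was detectable at this depth.

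Factors X and VII, which act next to each other in the clotting cascade and whose genes are neighbours on chromosome 8, were both higher in SKYD. F10 (ENSMUSG00000031444, 13037308 to 13056676) had an FPKM of 100.1 in PDR and 184 in SKYD, 1.83-fold higher in SKYD (1.78 to 1.89). F7 (ENSMUSG00000031443, 13026034 to 13035809) had 13.6 and 29.7, 2.18-fold higher (1.98 to 2.40). F5, whose product is the cofactor of factor Xa, had 1.74 and 3.51, 2.02-fold higher by FPKM (1.76 to 2.32), and its log2(FPKM + 1) difference of -0.72 did not pass the 2-fold threshold. F5 overlaps Gm16548 (4 and 23 reads) on the other strand. Tissue factor (F3) was close to the limit in both libraries, with 70 reads in PDR and 49 in SKYD, 1.52-fold higher in PDR (1.04 to 2.24). Prothrombin (F2), which liver makes, was also higher in PDR, with an FPKM of 9.20 in PDR and 1.37 in SKYD. F10 was 10.9 times as abundant as F2 in PDR and 134 times in SKYD.

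Fibrinogen, the substrate of the clot, was the most abundant product among the 17 liver-made members. Fgg, the gamma chain gene, had an FPKM of 68.0 in PDR and 20.0 in SKYD. Fgb, for the beta chain, had 42.2 and 12.4, and Fga, for the alpha chain, had 26.2 and 6.25. All 3 genes lie together on chromosome 3 and were higher in PDR, in contrast to C1q. The ratios were 3.40 for Fgg (3.17 to 3.65), 3.40 for Fgb (3.18 to 3.63) and 4.19 for Fga (3.79 to 4.65). Fgb stood at 0.621 of Fgg in PDR and 0.622 in SKYD, so their proportion was nearly the same in both libraries, while Fga stood at 0.385 and 0.313. The fibrinogen genes took 0.0388% of reads in PDR (0.0380 to 0.0397) and 0.0106% in SKYD (0.0102 to 0.0110).

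**Figure D2:**
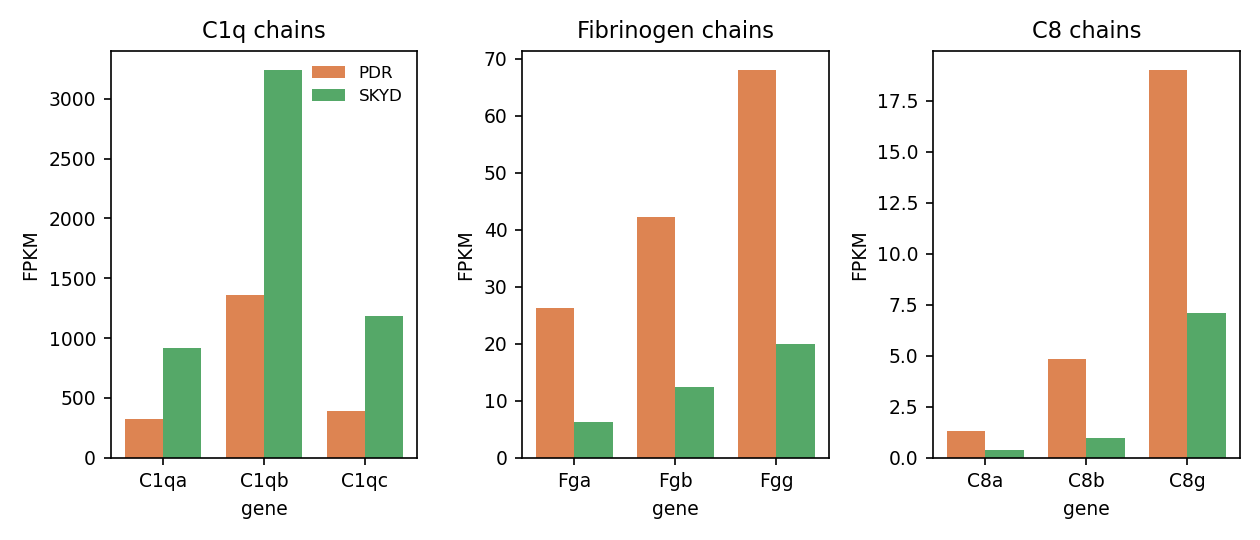
FPKM (vertical axes from 0, on a separate scale per panel) of the genes for the C1q, fibrinogen and C8 chains in the PDR and SKYD libraries, 1 pooled library per bar. C1q bars are higher in SKYD, up to 3239.8 for C1qb, and fibrinogen and C8 bars are higher in PDR, up to 68.0 for Fgg.

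Promoter sequences are shown for members that moved together or apart, namely C1qb for the macrophage-made genes, Fgb and Fgg for a liver-made pair with equal ratios, F10 and F9 for related clotting proteases that differed in opposite directions, and Masp2 for the largest ratio among liver-made members. They are the 250 bases before the transcription start, 5' to 3' on the gene's strand, from RefSeq in GRCm38.p6. Capitals mark letters matching TTGCNNAA (the C/EBP motif) or TTCNNNGAA (the STAT motif) on either strand.
C1qb, chr4:136886201-136886450, minus strand: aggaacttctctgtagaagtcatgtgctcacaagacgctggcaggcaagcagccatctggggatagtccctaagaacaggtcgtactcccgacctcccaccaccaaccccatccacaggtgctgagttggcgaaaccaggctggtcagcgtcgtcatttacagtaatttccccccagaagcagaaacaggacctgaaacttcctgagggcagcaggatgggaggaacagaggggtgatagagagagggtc
F10, chr8:13037058-13037307, plus strand: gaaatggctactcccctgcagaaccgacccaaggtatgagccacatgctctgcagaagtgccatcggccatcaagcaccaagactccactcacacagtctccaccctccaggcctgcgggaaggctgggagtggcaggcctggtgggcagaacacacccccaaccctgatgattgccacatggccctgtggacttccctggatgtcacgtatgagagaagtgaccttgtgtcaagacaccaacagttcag
Fgb, chr3:83049864-83050113, minus strand: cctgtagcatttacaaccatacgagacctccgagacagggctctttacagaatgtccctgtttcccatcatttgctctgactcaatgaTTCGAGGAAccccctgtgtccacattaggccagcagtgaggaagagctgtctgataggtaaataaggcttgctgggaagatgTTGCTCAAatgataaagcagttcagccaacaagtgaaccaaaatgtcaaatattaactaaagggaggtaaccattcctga
Fgg, chr3:83007474-83007723, plus strand: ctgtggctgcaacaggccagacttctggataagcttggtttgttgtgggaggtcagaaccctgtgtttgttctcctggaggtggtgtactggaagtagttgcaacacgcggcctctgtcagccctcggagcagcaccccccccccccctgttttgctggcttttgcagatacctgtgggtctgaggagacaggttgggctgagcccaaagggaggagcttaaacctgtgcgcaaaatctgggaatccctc
F9, chrX:59999214-59999463, plus strand: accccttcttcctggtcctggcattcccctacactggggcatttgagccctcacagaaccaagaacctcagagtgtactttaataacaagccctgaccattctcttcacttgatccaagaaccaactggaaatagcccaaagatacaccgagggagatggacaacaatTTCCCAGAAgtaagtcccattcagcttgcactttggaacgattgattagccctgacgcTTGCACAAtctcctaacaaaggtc
Masp2, chr4:148602294-148602543, plus strand: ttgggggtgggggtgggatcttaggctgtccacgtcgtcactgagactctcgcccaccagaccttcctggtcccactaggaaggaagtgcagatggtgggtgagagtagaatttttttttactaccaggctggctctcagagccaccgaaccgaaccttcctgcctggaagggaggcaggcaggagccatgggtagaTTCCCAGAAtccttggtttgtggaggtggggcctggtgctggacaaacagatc

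Windows were found for 33 of the 42 members, 15 of them liver-made, 7 macrophage-made and 11 with several sources. In the 250 bases before the start, the C/EBP letters occurred in 5 of 15 liver-made, 1 of 7 macrophage-made and 2 of 11 several-source windows, against 9.56% of all 32851 promoters. The STAT letters occurred in 5, 0 and 1 of these windows, against 7.02%. Fgb, Fga and F9 held both, and Fgg and F10 held neither. The HNF1 motif occurred in C4bp alone, as GTTAATCATT starting 64 bases before the start, against 0.371% of all promoters. GAGGAAGT, from the PU.1 motif, occurred in C1qc alone, against 2.44%, and the IRF motif occurred in 0 of 33, against 2.98%. No 2 of these motifs share a match in the printed windows. A match of letters is a description of sequence and not a binding site.

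All 17 members listed as liver-made had a higher FPKM in PDR, and of the 14 compared, 12 were past 2-fold on the log2(FPKM + 1) scale. Counting F7, Cfi, C6 and Masp1 as liver-made too gave a median difference of 1.53, with F7 then past 2-fold in SKYD. Proc (protein C, an anticoagulant protease) had an FPKM of 7.37 in PDR and 0.869 in SKYD, an 8.48-fold ratio (5.92 to 12.5). F12, which starts the contact pathway, had 5.23 and 0.592, an 8.84-fold ratio (6.00 to 13.5). Plg, the precursor of plasmin, had 5.39 and 0.765, a 7.04-fold ratio (5.48 to 9.17), and overlaps Slc22a3 (0 and 16 reads) on the other strand. These levels were low next to C1q, and each of the 3 was under 1 FPKM in SKYD. For F2 the ratio was 6.73 (5.68 to 8.02). F9 and F11, proteases of the intrinsic pathway, were under the limit, with 74 and 15 reads for F9 and 28 and 3 reads for F11 in PDR and SKYD, ratios of 5.25 (2.99 to 9.85) and 9.93 (3.07 to 51.0).

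The compared members of the lectin pathway and of the membrane attack complex, which pierces target membranes, were also higher in PDR. Mbl2 and Mbl1 encode the mannose-binding lectins. Mbl2 had an FPKM of 11.9 in PDR and 6.61 in SKYD, a 1.79-fold ratio (1.49 to 2.17), the smallest of the liver-made members. Mbl1 had 5.67 and 2.22, a 2.56-fold ratio (1.98 to 3.32). Masp2, the protease that mannose-binding lectin activates, had 177 reads in PDR and 11 in SKYD, a 17.1-fold ratio (9.34 to 34.9), the largest of the liver-made members. Its gene overlaps Tardbp on the other strand, so its few reads are uncertain. Masp1 had 29 and 2 reads, a 15.4-fold ratio (3.90 to 133), and lies across from Rtp4 in the same way.

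Among the genes of the membrane attack complex, C8g had an FPKM of 19.0 in PDR and 7.10 in SKYD, a 2.68-fold ratio (2.32 to 3.10). C8b had 4.82 and 0.990, a 4.86-fold ratio (3.69 to 6.50), and C8a had 1.33 and 0.385, a 3.47-fold ratio (2.35 to 5.22). C9 had 265 and 96 reads, a 2.94-fold ratio (2.32 to 3.75), and C6 had an FPKM of 1.88 and 0.596, a 3.15-fold ratio (2.30 to 4.39). The chains that form 1 protein were unequal at the RNA level, with C8b at 0.253 of C8g in PDR and 0.139 in SKYD. The level of C8g is uncertain, since it overlaps the expressed gene Fbxw5 on the other strand (610 and 474 reads). C4bp, an inhibitor that binds C4b, had 1.90 and 0.648, a 2.93-fold ratio (2.34 to 3.68), yet its log2(FPKM + 1) difference of 0.81 stayed within 2-fold at this low level.

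**Figure D3:**
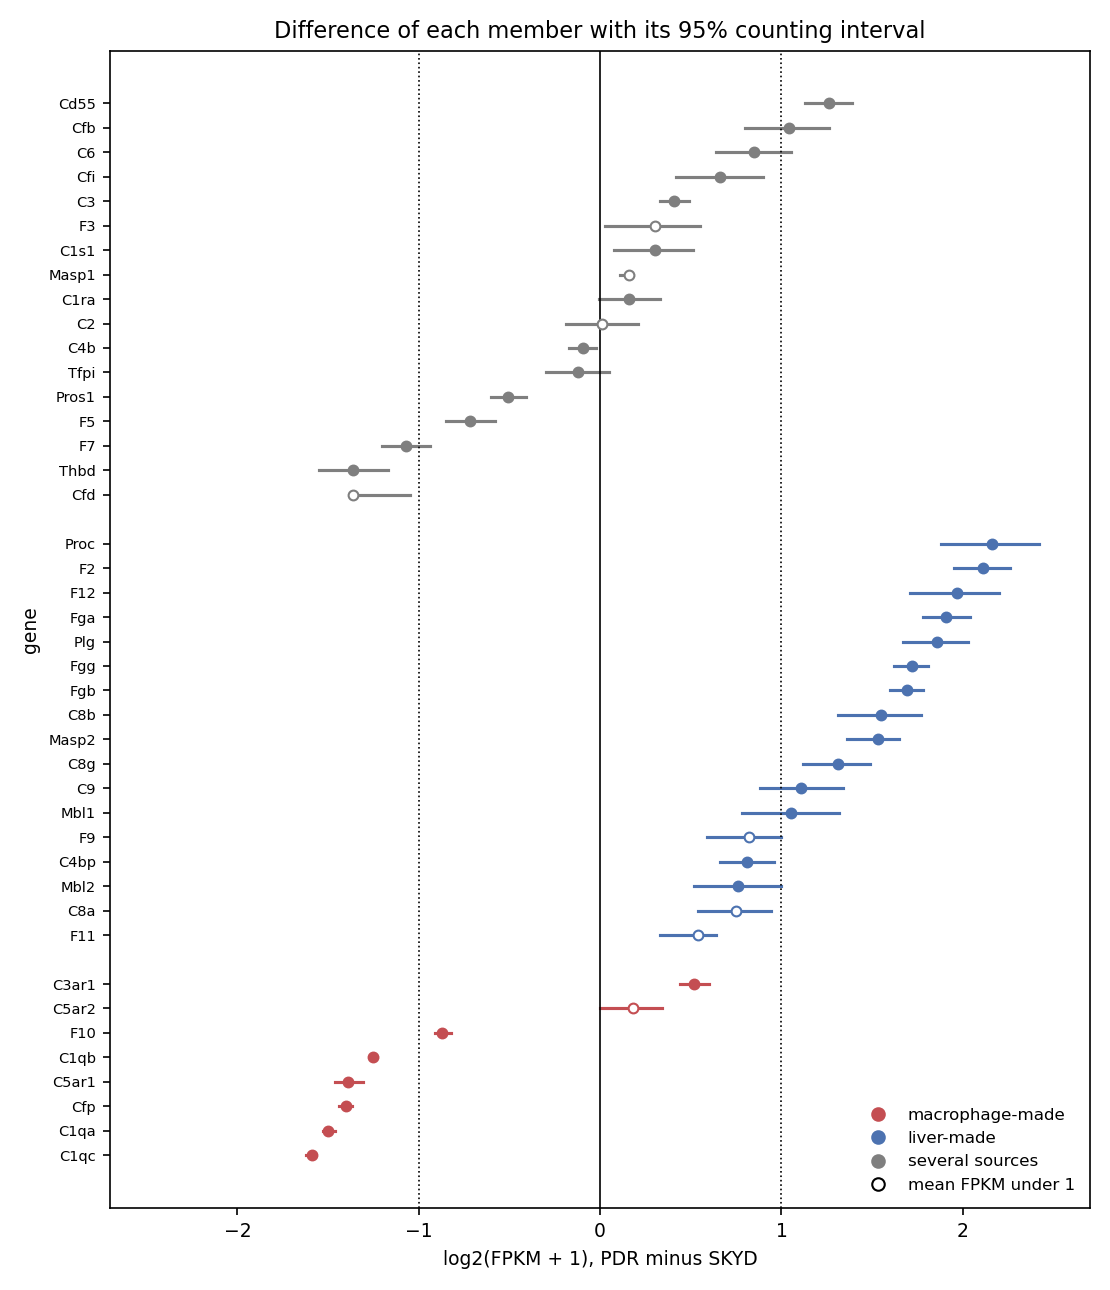
Difference in log2(FPKM + 1), PDR minus SKYD (horizontal axis), of each of the 42 members (vertical axis) with its 95% counting interval, grouped by source. Open points have a mean FPKM under 1 and dotted lines mark 2-fold. Liver-made genes lie between 0.54 and 2.16, and macrophage-made genes between -1.59 and 0.52.

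Hepatocyte markers moved with the liver-made members. Of 17 compared markers, 17 were higher in PDR and 15 past 2-fold on the log2(FPKM + 1) scale, with a median difference of 1.75. The summed FPKM of the markers was 2659 in PDR and 871 in SKYD. None of the 19 was at 0 in either library. Apoa2 had an FPKM of 793 in PDR and 294 in SKYD, Fabp1 had 409.6 and 167, and Apoa1 had 402 and 111. The ratio of FPKM ran from 2.42 (Ass1) to 5.38 (Tat) with a median of 3.47 over these markers, and from 1.79 to 17.1 with a median of 4.19 over the 17 liver-made members. Relative to the hepatocyte markers, the summed liver-made members stood at 8.14% in PDR and 7.13% in SKYD. The part of hepatocyte RNA in these values was not tested.

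Within the range of the hepatocyte markers lay 10 members, among them the fibrinogen chains, the C8 chains and C9. Above it lay F11, F12, F2, Masp2, Plg and Proc. The limits of this range have counting intervals of their own, 4.68 to 6.21 for Tat and 1.90 to 3.10 for Ass1, and of these 6 members Masp2 alone, whose reads are uncertain, had an interval wholly above that of Tat. Mbl2 lay below the range, with an interval that overlapped that of Ass1. Proc stood at 0.277% of the summed hepatocyte markers in PDR and 0.0997% in SKYD, F12 at 0.197% and 0.0679%, and Mbl2 at 0.446% and 0.759%.

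**Figure D4:**
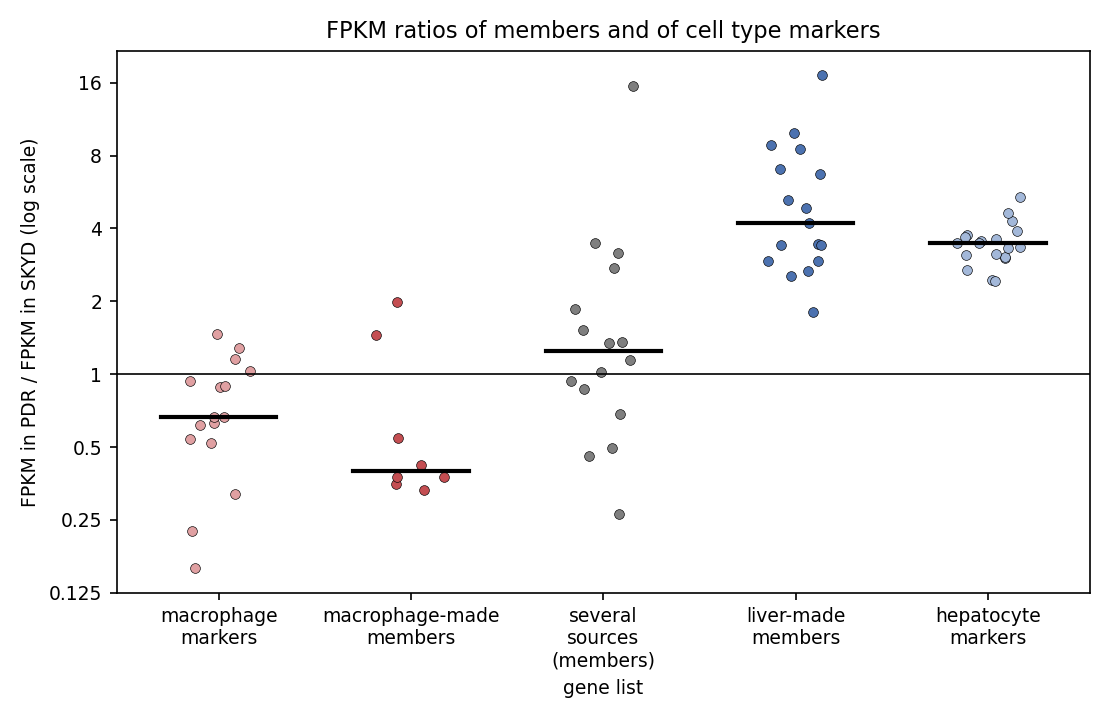
Ratio of FPKM in PDR to FPKM in SKYD (vertical axis, log scale) for macrophage markers, the macrophage-made, several-source and liver-made members, and hepatocyte markers (horizontal axis), with 1 point per gene and a bar at the median. The medians are 0.667, 0.399, 1.24, 4.19 and 3.47 in that order, and Cfd, with 0 reads in PDR, is not drawn.

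Members with several sources had a median ratio of 1.24, between those of the other classes, but ranged from 0.264 (Thbd) to 15.4 (Masp1), with Cfd at 0 reads in PDR. C3, the central protein on which all pathways converge, had an FPKM of 23.0 in PDR and 17.0 in SKYD, 1.35-fold higher in PDR (1.28 to 1.43). C4b had 18.7 and 20.0, 1.07-fold higher in SKYD (1.01 to 1.13). C1ra and C1s1, the proteases of the C1 complex, had 6.33 against 5.54 and 2.59 against 1.92 in PDR against SKYD. Unlike C1q, neither was higher in SKYD, and the interval of the C1ra ratio, 0.996 to 1.31, included 1. C2 had 44 and 46 reads, which showed no difference at this depth (ratio 1.02, 0.658 to 1.57). The sequence of C1ra, C1s1 and C4b is partly shared with C1rb, C1s2 and C4a, for 45.7%, 16.3% and 27.2% of 64-base windows, so their levels are uncertain. Fibroblasts also make C1r, C1s and C3, and 3 of 3 compared fibroblast markers were higher in SKYD, with sums of 11.6 in PDR and 48.4 in SKYD.

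Genes of complement regulation were higher in PDR or low. Cd55, which anchors to the cell surface and breaks down C3 convertases, had an FPKM of 10.5 in PDR and 3.82 in SKYD, 2.75-fold higher in PDR (2.47 to 3.07). Cfi, the protease that cuts C3b, had 3.89 and 2.09, 1.86-fold higher in PDR (1.48 to 2.36). Cfb, an interferon-inducible factor of the alternative pathway, had 170 reads in PDR and 52 in SKYD, 3.48-fold higher in PDR (2.54 to 4.84). Its level is uncertain, since 71.2% of its 64-base windows, and 37.7% of those of C2, also occur in the readthrough gene Gm20547, which had 0 reads in both libraries. Cfd (factor D, known mainly from fat cells) was the opposite case, with 0 reads in PDR, which allows up to 3, and 36 in SKYD, at least 11.3-fold higher in SKYD. Adipocyte markers beside it were low, with 1 of 7 compared (Pck1, also a liver enzyme), and they went in both directions. Adipoq, which defines fat cells, had 13 reads in PDR and 3 in SKYD, Cidec had 15 and 42, Retn had 17 and 21, Plin1 had 10 and 12, and Lep had 0 in both. Their part in the Cfd value was not tested.

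The anticoagulant members differed in both directions. Thbd, the endothelial and myeloid receptor that turns thrombin toward protein C, had an FPKM of 1.28 in PDR and 4.86 in SKYD, 3.79-fold higher in SKYD (3.08 to 4.71), against the 8.48-fold higher level of Proc in PDR. Pros1, the cofactor of protein C, had 13.3 and 19.4, 1.45-fold higher in SKYD (1.35 to 1.56). Tfpi, which blocks tissue factor, had 1.46 and 1.68, and its interval of 0.945 to 1.40 included equal levels. Endothelial markers were nearly absent, with 1 of 10 above the limit and sums of 6.32 in PDR and 5.19 in SKYD. Platelets carry factor V and protein S, and their markers were higher in PDR for 4 of 5 compared genes, none past 2-fold on the log2(FPKM + 1) scale and with intervals including equal levels for Clec1b and Gp9, and Pf4, which macrophages can also express, had an FPKM of 218 in PDR and 1446 in SKYD. The part of these cells in the Thbd, F5 and Pros1 values was not tested.

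Outside the 42 members, 55 further complement and coagulation genes were examined, of which 31 were compared. More than 2-fold higher in PDR were 8, and more than 2-fold higher in SKYD were 5 (41.9% in all, against 14.3% of all genes). The 8 were Vtn, Kng1, Serpinc1, Serpind1, Serpinf2, Cpb2, Clu and Tfpi2, and all of them except Clu and Tfpi2 encode plasma proteins known mainly from liver. Vtn (vitronectin) had an FPKM of 35.5 in PDR and 7.29 in SKYD, a 4.86-fold ratio (4.34 to 5.46), and Serpinc1 (antithrombin) had 10.3 and 2.13, a 4.84-fold ratio (4.37 to 5.37). The 5 were Vsig4, Fcna, Cd93, Gas6 and Vkorc1. Vsig4, a complement receptor of resident macrophages, had 3.13 in PDR and 38.2 in SKYD, a log2(FPKM + 1) difference of -3.25 (-3.47 to -3.03). Fcna, a ficolin that opens the lectin pathway, had 1776 and 6692 reads, 3.54-fold higher in SKYD (3.36 to 3.73). Itgb2 and Plaur, the other abundant genes of the list, had FPKM of 175 and 210.0, and of 54.6 and 86.3, in PDR and SKYD. C5 itself (Hc) was low, with 112 reads in PDR and 27 in SKYD, and C7, of the membrane attack complex, had 0 reads in PDR, which allows up to 3, and 13 in SKYD, at least 4.07-fold higher in SKYD.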

How the data were processed

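RNA of F4/80+ CD11b+ aortic cells from 5 pooled mice per group was sequenced as 1 library each. After filtering, the authors mapped reads using TopHat2 2.0.9 (Bowtie2 2.0.6), counted them per gene with HTSeq 0.6.1 and deposited FPKM. The processing notes name mm9, but 98.3% of 54409 gene positions equal those of GENCODE M21 (GRCm38), and so do 40 of the 42 members' positions. FPKM times gene length came in whole steps of 1 read for 100.0% of genes above 0 (tolerance 0.001 reads, or that share of larger counts), which gave the reads. A count of 0 allows up to 3 reads, 1.30e-05% of the PDR and 1.18e-05% of the SKYD library. In its default mode, HTSeq leaves out reads that fall on overlapping genes. Whether strand was used in counting was not stated, so the effect of a gene on the other strand is not known.

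Analysis was limited to genes averaging 1 FPKM or more, on the log2(FPKM + 1) scale, and a gene was called past 2-fold, the fold threshold of the study. With 1 library per group no test was possible, and no p-value was computed. Members, source lists and marker lists were chosen with earlier results of these data known. All members are named, as are the other pathway genes past 2-fold. The 3 genes of that list, 3 macrophage markers and 3 hepatocyte markers most abundant by mean FPKM are also named. Any further gene was picked with its values in view. The symbol of 1 of the 20 hepatocyte markers was not matched. Steps were tested on simulated data. Software was scipy 1.17.1, pandas 2.3.3 and numpy 2.4.6 under Python 3.11.15, with matplotlib 3.10.9 for plots.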

Additional observations from a re-analysis of the deposited data

How the results depend on the processing

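All 42 members kept the sign of their difference with a pseudocount of 0.1 or 0.01, no filter, a mean FPKM of at least 5, TPM and centring on the median of all genes, wherever these gave a value. The count of members past 2-fold in PDR, 14, was 6 with a mean FPKM of at least 5, because fewer genes were compared, and 2 with a 4-fold threshold, which left 0 of the 7 in SKYD. Without the 12 members that overlap or share sequence with another gene, an alternative chosen after seeing the data, it was 9, and the median of members with several sources went from 0.16 to -0.12. The other pathway genes past 2-fold, 13, numbered 8 with a mean FPKM of at least 5 and 2 at 4-fold. The liver-made median of 1.62 was 1.91 and 1.92 with pseudocounts of 0.1 and 0.01, and -0.14 once centred on the median of the hepatocyte markers. Centred on the macrophage markers, the macrophage-made median of -1.39 was -0.81. The cause was not tested where none is given. Depth limits C5ar2, C2, F3, F9, F11, Masp1 and Cfd, each with under 100 reads per library. No paired analysis was possible because each group has 1 library.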

Other observations

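The vitamin K-dependent proteins, which need the carboxylase Ggcx and the reductase Vkorc1, were grouped after their values were seen. F2, F9, Proc and Proz were higher in PDR, by 6.73-, 5.25-, 8.48- and 5.15-fold in FPKM, and F7, F10, Pros1 and Gas6 were higher in SKYD, by 2.18-, 1.83-, 1.45- and 3.41-fold. Proz, which like F9 was under the limit, had 155 reads in PDR and 32 in SKYD, and Gas6 had 85 and 308. Ggcx had an FPKM of 1.43 in PDR and 1.30 in SKYD (ratio 1.10, 0.837 to 1.46), and Vkorc1 had 9.63 and 20.8, 2.16-fold higher in SKYD (1.82 to 2.58).

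Other genes of the clot and of complement reception were also measured. F13a1, the chain of factor XIII that macrophages and platelets carry, had an FPKM of 21.7 in PDR and 39.7 in SKYD, 1.83-fold higher in SKYD (1.76 to 1.91), in contrast to the fibrinogen that it cross-links. Plaur, the urokinase receptor, was 1.58-fold higher in SKYD (1.51 to 1.65). Cr2, a complement receptor of B cells, had 342 reads in PDR and 26 in SKYD, a 14.0-fold ratio (9.39 to 21.7). Its mean FPKM of 0.962 was under the limit.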
